A study of Homo sapiens with 18 samples.

Results

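Retained-intron transcripts are the RNAs that the annotation marks as keeping, inside an exon, sequence that other transcripts of the same gene remove as an intron. They were taken from the table of all transcripts as the rows of type retained_intron with a mean of at least 20 estimated counts over the 18 samples, which gave 2144 of 145326 transcripts, and 9.45% of the 22680 rows of that type. They belong to 1615 genes, called host genes here, of which 1239 had 1 such transcript, 277 had 2 and 99 had 3 or more, up to 11. The rule used the level of a transcript over all samples and not its change, so levels are given as a description.

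An intron is removed from a precursor RNA by the spliceosome, which reads short signals at its 5′ end, usually GT, and at its 3′ end, usually AG. RNAs that keep an intron often stay in the nucleus, and many of those that reach the cytoplasm are broken down by nonsense-mediated decay, so a gene can lower its protein output or hold a store of RNA by keeping an intron. Genes of splicing factors, RNA-binding proteins and OGT, the enzyme that adds N-acetylglucosamine to proteins, are textbook cases.

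Samples were spheroidal aggregates of 2 human cell lines, U87 mg (glioblastoma) and DAOY (desmoplastic cerebellar medulloblastoma), set in Matrigel in electrotaxis channels. They received a direct current electrical field (dcEF) of 250 V/m for 2 or 8 h or, as the control, for 0 h, with 3 samples for each line and time. No agent or genetic change differed between the groups, each tumour type was represented by 1 line, 3 channels were pooled per sample, and time in the channel without field was not sampled at 2 and 8 h, so exposure and time cannot be told apart. RNA was poly-A selected, and total estimated counts per sample ranged from 8341976 to 15610886. The study's methods call the 3 samples of a group biological replicates, with no word on whether each was a separate culture. They were picked among others for their quality, except in DAOY at 8 h. That group had only 3 to use, because 1 sample had RNA of poor quality. The p-values therefore measure the spread between these samples only.

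VIM, a filament protein of mesenchymal cells, and CD44, a cell surface receptor, were high in both lines, at 4744 and 2405 TPM (abundance scaled for transcript length and library total) for VIM and at 3172 and 1129 TPM for CD44 at 0 h in U87 mg and DAOY. The neural and glial markers NES, GFAP and SOX2 were at 7.77, 1.91 and 0.0185 TPM in U87 mg and at 0.551, 0.246 and 4.24 TPM in DAOY at 0 h. Of the cerebellar markers, ZIC1 was at 12.6 TPM in DAOY and 8.85 TPM in U87 mg, GLI2 at 1.24 and 4.23 TPM, OTX2 at 1.97 and 0 TPM, and ATOH1 at 0 in both. The blood cell marker PTPRC was at most 0.287 TPM in any group, and the vessel marker PECAM1 was at 1.66 TPM in U87 mg and 7.50 TPM in DAOY at 0 h.

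All 2144 transcripts were found in GENCODE 29 (GRCh38) by their identifiers, and 2131 carry the type retained_intron there too. In 841 of them (39.2%) at least 1 whole intron of another transcript of the gene, of at least 30 bases, lies inside an exon, 549 with exactly 1 and 292 with 2 or more. Another 1292 hold no whole intron but have an exon that overlaps one, and 11 overlap none. Exons that run on into an intron and exons that lie inside it were not separated. Of the 1328 whole introns, 96.4% begin with GT and end with AG. Their median length was 341 bases, against 1412 bases for all introns of the protein-coding transcripts of the same genes. Only an intron that fits inside an exon was counted, which favours short ones. Introns held by retained-intron rows under the count threshold, counted in the same way, had a median of 214.5 bases. The median GC content of the 1328 introns was 46.0%, against 57.7% for the introns held by retained-intron rows under the count threshold. The 5′ start GTAAG stood at 19.9% of them and GTGAG at 23.4%, against 16.4% and 33.1% of the introns in rows under the threshold, read on the strand of the gene.

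The following introns belong to transcripts whose values are described further on, chosen because each lies whole inside an exon of the most abundant retained-intron transcript of its gene. They are printed 5′ to 3′ from the GRCh38 sequence with 6 exon bases on each side, and capitals mark the first 2 and last 2 bases of the intron. The intron of PFKM, chr12:48135039-48135290 on the plus strand, spans 252 bases and is spliced out in 9 annotated transcripts. The intron of MSL1, chr17:40131346-40131536 on the plus strand, spans 191 bases and is spliced out in 1.
PFKM intron: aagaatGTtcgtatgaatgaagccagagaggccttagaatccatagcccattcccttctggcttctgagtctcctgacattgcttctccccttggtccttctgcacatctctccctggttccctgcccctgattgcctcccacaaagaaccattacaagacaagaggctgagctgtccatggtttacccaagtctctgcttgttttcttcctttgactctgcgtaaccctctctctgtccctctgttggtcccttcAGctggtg
MSL1 intron: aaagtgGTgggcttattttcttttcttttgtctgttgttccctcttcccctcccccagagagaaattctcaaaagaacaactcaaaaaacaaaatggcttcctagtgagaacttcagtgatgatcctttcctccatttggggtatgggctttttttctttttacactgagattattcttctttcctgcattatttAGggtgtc

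For 3 longer introns only the ends are shown, with 6 exon bases and 20 intron bases. They lie in OGT (chrX:71544636-71547906, plus strand, 3271 bases), in SRRM1 (chr1:24646790-24648858, plus strand, 2069 bases) and in DDX17 (chr22:38488116-38492055, minus strand, 3940 bases).
OGT 5′ end: gccaagGTaggtgtttgatagaacac
OGT 3′ end: tttcattaacccctcctaAGgcatgt
SRRM1 5′ end: gtgaagGTactaatatacaaatggct
SRRM1 3′ end: cctgtcgtgtctttttgcAGaatcca
DDX17 5′ end: ggctagGTttgtatagataggtgtct
DDX17 3′ end: actcatcattgacgtggaAGatgtgg

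Levels spread widely. The mean count ran from 20.006 to 7311 with a median of 45.5 (quartiles 28.6 and 95.1), and the median level was 6.91 TPM. The 3 transcripts just above the threshold, of TPD52L2, ARHGEF12 and SUN1, had mean counts of 20.006, 20.009 and 20.012, and the 3 just below it, of SRA1, BBS2 and SCAF4, had 19.970, 19.973 and 19.995. A mean of at least 20 counts was reached in both lines by 1526 transcripts, in U87 mg alone by 356, in DAOY alone by 262, and in every one of the 6 conditions by 1100. At least 1 sample stood at 0 in 650 of them (30.3%).

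The 10 most abundant members per length belonged to 10 genes. RPS23, a protein of the small ribosomal subunit, led with 1725 TPM over all samples (ENST00000504293, chr5:82276060-82277951, minus strand, 1 whole intron of 78 bases), and this row held 85.9% of all counts of the gene. It was followed by FN1 (fibronectin, 1214 TPM), EEF1A1 (translation elongation factor, 847 TPM), RPL4 (large ribosomal subunit, 846 TPM) and PKM (pyruvate kinase, 821 TPM). TMBIM6 (674 TPM), SPARC (a matrix glycoprotein, 503 TPM), UCHL1 (a deubiquitinating enzyme, 428 TPM), TPI1 (triosephosphate isomerase, 381 TPM) and OAZ1 (an inhibitor of polyamine synthesis, 368 TPM) completed the first 10. The 10 transcripts with the highest mean count, a set that partly differs, took 15.6% of the counts of the class. Only RPS23 and EEF1A1 among the genes just named hold a whole intron in their leading row.

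Within its host gene, a retained-intron transcript was usually a minor form. The median share of the gene's counts was 6.63% (quartiles 2.66% and 16.8%), 902 transcripts stayed under 5%, and 101 held over 50%. In 157 host genes the retained-intron rows together held over 50% of the counts, and in 6, SNHG3 among them, they held all of them.

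Reads were divided by kallisto among transcripts that share most of their sequence, so single rows were noisy. Of 7825 cases in which a member had at least 50 counts in 1 sample of a group, another sample of that group had under 1 count in 7.14%, against 11.6% of 133781 such cases among other transcripts. For single transcripts edgeR put the biological coefficient of variation, the spread between replicates beyond counting, at 0.761 (U87 mg) and 0.833 (DAOY). It came to 0.358 and 0.424 once rows of 1 gene and 1 type were summed, so most values below are such sums. Over the 2144 transcripts, the log2 counts of the DAOY 0 h replicate 0 correlated with those of the other 2 samples of its group at r = 0.461 and 0.499, while every other pair of replicates lay between 0.622 and 0.754. These are descriptions across transcripts of shared genes. The table has no rows for unspliced precursors, so a precursor and a retained-intron transcript cannot be told apart, and in bulk RNA fewer cells of a kind and less RNA per cell cannot be told apart either.

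As a class the 2144 transcripts took 2.11% to 3.12% of a library. In U87 mg their share of all estimated counts was 2.38% ± 0.0808 (SD, n = 3) at 0 h, 2.35% ± 0.0469 at 2 h and 2.38% ± 0.152 at 8 h. In DAOY it was 2.56%, 2.47% and 2.82% in the samples at 0 h, 2.11%, 2.78% and 2.59% at 2 h, and 2.64%, 3.12% and 2.78% at 8 h. The exposed and control samples overlapped in each of the 4 comparisons, and the DAOY 2 h replicate 0 was the lowest of all 18 samples.

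The share of the class in the counts of all rows of its host genes gave the same picture. It was 8.52% ± 0.436, 8.52% ± 0.166 and 8.45% ± 0.424 at 0, 2 and 8 h in U87 mg, and 9.38% ± 0.474, 8.85% ± 1.20 and 10.2% ± 0.908 in DAOY, with overlap in every comparison. Without the DAOY 2 h replicate 0, which stood at 7.47%, the other 2 samples of that group were at 9.42% and 9.65%. The median over host genes of the share in each gene was 9.22% ± 0.486 at 0 h and 10.8% ± 1.13 at 8 h in DAOY, and here the groups did not overlap, although the highest sample at 0 h, at 9.675%, all but met the lowest at 8 h, at 9.678%. Counted in TPM, which weighs short transcripts more, the class went from 5.36% ± 0.552 to 5.20% ± 0.232 of the total in DAOY at 8 h, opposite in direction to the counts. Transcripts of the mitochondrial genome took 4.74% of counts at 0 h and 6.81% at 8 h in DAOY without overlap, and with them left out of the total the log2 ratio of the class share at 8 h was 0.16 against 0.12 with them.

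**Figure D1:**
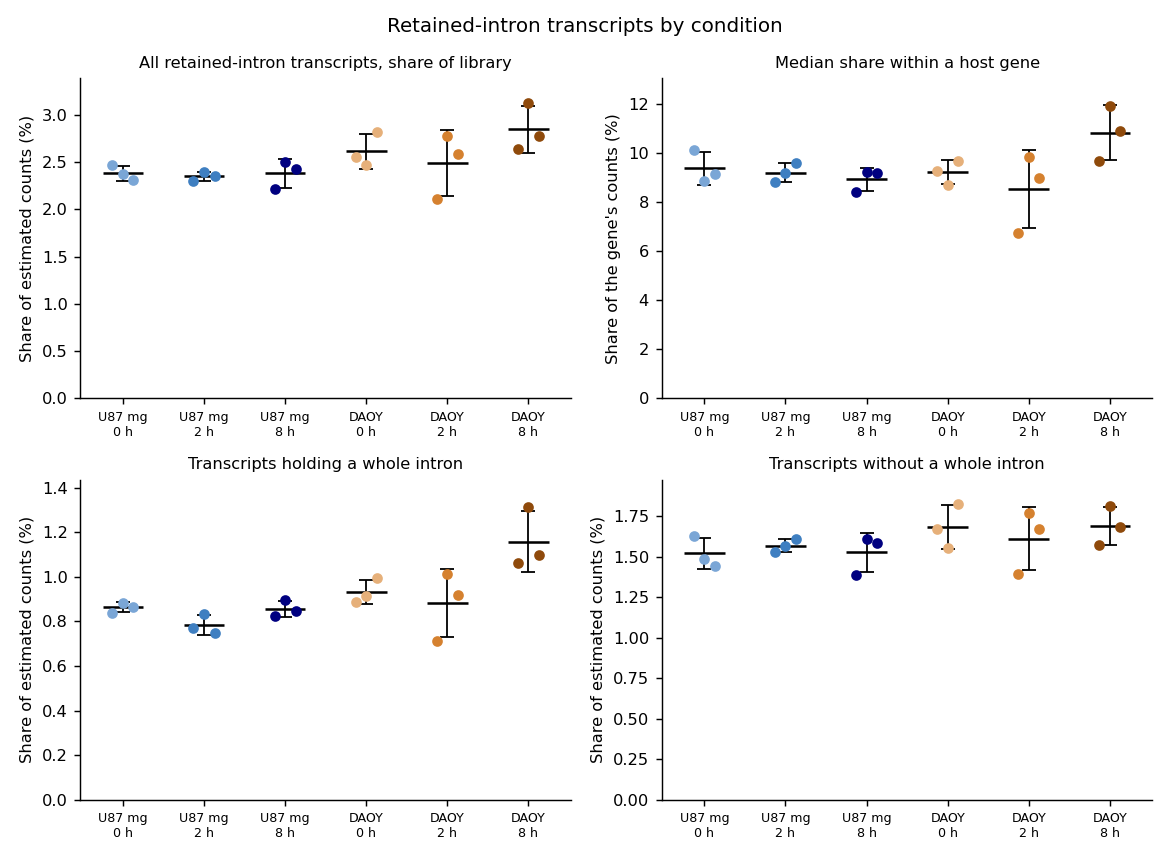
Share of estimated counts taken by retained-intron transcripts (y axes, %, starting at 0) in the 6 conditions, with points for the 3 samples, bars for the mean and whiskers for ± 1 SD. The lower panels split the class by structure, and the 841 transcripts that hold a whole intron are the ones whose DAOY samples at 8 h, 1.06% to 1.31%, lie above all 3 at 0 h.

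The class was not uniform. The 841 transcripts with a whole intron took 0.888%, 0.913% and 0.993% of counts in DAOY at 0 h and 1.06%, 1.31% and 1.10% at 8 h, 1.24 times as much on average and without overlap. The 1303 transcripts without a whole intron took 1.68% ± 0.138 and 1.69% ± 0.119, with overlap. The retained-intron rows that the same rule left under the threshold took 0.527%, 0.558% and 0.469% at 0 h and 0.574%, 0.683% and 0.630% at 8 h, 1.21 times as much and again without overlap. These rows come from the same samples and were set apart by the same counts, so they are no independent check. In TPM the share of the whole-intron transcripts was 1.14% ± 0.120 and 1.24% ± 0.0482, 1.08 times as much, and that of the rows under the threshold went from 1.26% to 1.31%, 1.04 times as much, and in both the samples overlapped.

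Change was then tested transcript by transcript and gene by gene. Each line was fitted with edgeR's quasi-likelihood test on all transcripts or sums, p-values were adjusted over all features by the Benjamini-Hochberg method, and a feature was called if its adjusted p was below 0.05 and its level at least doubled or halved, that is, moved by 1 or more in log2 units. No p was computed for the class itself.

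In DAOY at 8 h the retained-intron sums shifted upward while the protein-coding sums of the same genes did not. The median log2 fold change of the 1585 sums tested was 0.23, and 65.3% were higher than at 0 h, against a median of -0.01 over all 23540 sums. The median was -0.01 for the 1542 protein-coding sums of the same host genes and, over all genes, -0.02 for the 1569 sums of nonsense-mediated decay transcripts and 0.04 for the 1728 of processed transcripts. Within the host genes, the log2 change of the retained-intron rows was more positive than that of the other rows in 1048 of 1609 genes (65.1%). That percentage was 47.2% and 47.0% in U87 mg at 2 and 8 h and 41.6% in DAOY at 2 h. The 3 samples at 8 h all lay above the 3 at 0 h for 344 retained-intron sums (21.7%, against 11.6% of all sums) and all below for 63 (3.97%, against 11.4%). The shift was smaller without the DAOY 8 h replicate 1, the library with the highest mitochondrial share (8.44%), with a median of 0.16 and 59.5% higher, and it lay between 0.22 and 0.28 without any one of the other 5 libraries.

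At an unadjusted p under 0.05, 265 sums were higher and 42 lower (16.7% and 2.65%, against 7.92% and 9.03% of all). Of these sums 23 rose and 2 fell after adjustment by edgeR's test, 1.45% and 0.126% of the members tested, against 0.374% and 0.578% of all sums. None stayed called without one of the DAOY libraries at 0 or 8 h, except 1 without the 0 h replicate 1, none was called on the 6 samples alone and limma on TPM called 5 with either pseudocount, while without a filter edgeR called 14 of them, DESeq2 called all 25 among 119 and the fit to all 18 samples called 23 of them among 77. Every alternative kept the direction of each of the 25. For single transcripts edgeR called 0 of 2078, as it called 0% of all transcripts, with 240 higher and 34 lower at an unadjusted p under 0.05 (11.5% and 1.64%, against 5% and 5.34% of all) and 111 called by DESeq2. Without overlap 435 transcripts were higher and 94 lower (20.9% and 4.52%, against 10.2% and 9.02% of all).

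**Figure D2:**
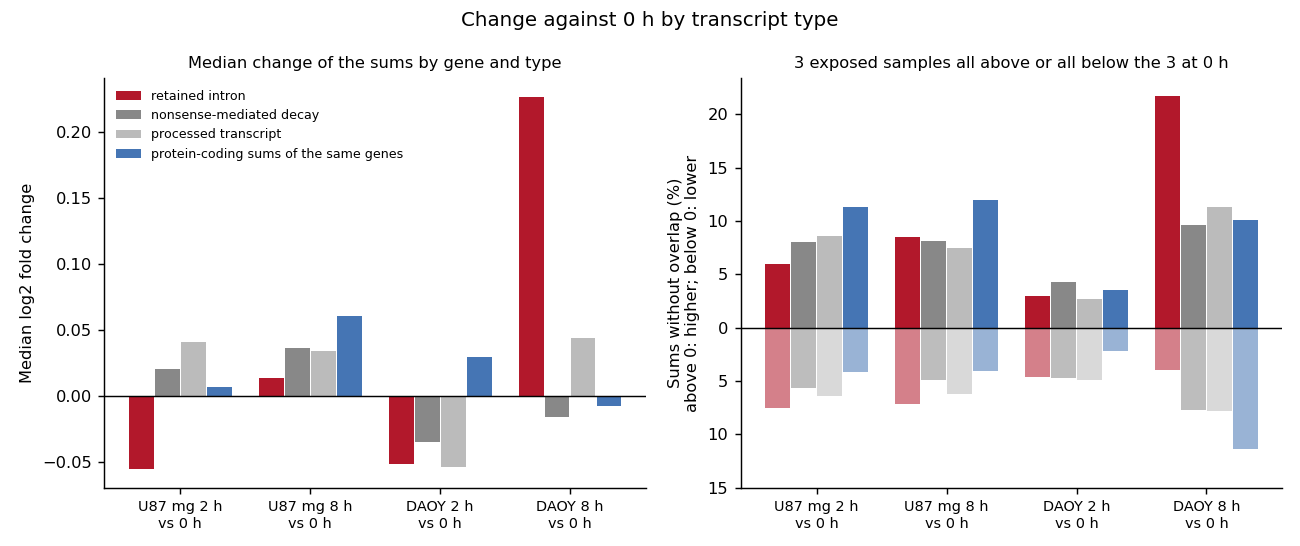
Median log2 fold change against 0 h (left, y axis) and percent of sums whose 3 exposed samples lie all above or all below the 3 at 0 h (right, y axis) for sums by gene and transcript type in the 4 comparisons. At 8 h in DAOY the retained-intron bars reach 0.23 and 21.7%, while the protein-coding sums of the same genes stay at -0.01 and 10.1%.

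The median was higher the more intron a transcript held. For the 820 transcripts tested that hold a whole intron the median log2 fold change was 0.60 and 74.9% were higher, and for the 1258 without one it was 0.09 and 55.4%. With under 300 bases of whole introns the median was 0.30 (65.8% higher), with 300 to under 1000 bases 0.63 (75.8%), and with 1000 or more 0.75 (83.5%). Transcripts of other types of at least 1000 bases had a median of -0.05, and members of that length had 0.69 with a whole intron and 0.14 without. Under 1000 bases other types had 0.02, and members had 0.19 with a whole intron (146 transcripts) and 0.05 without (768). The difference was thus smaller in short transcripts, and the part of transcript length was not tested. Introns under 40%, from 40% to 50% and over 50% GC had medians of 0.62, 0.65 and 0.52. When only members with at least 20 mean counts in U87 mg were taken, the medians were 0.62 with and 0.10 without a whole intron. These members had also passed the threshold over all samples and the filter in DAOY, so this choice was not independent of the DAOY samples. Leaving out 1 library gave 0.49 (without the 8 h replicate 1) to 0.67 with a whole intron and 0.03 to 0.17 without.

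**Figure D3:**
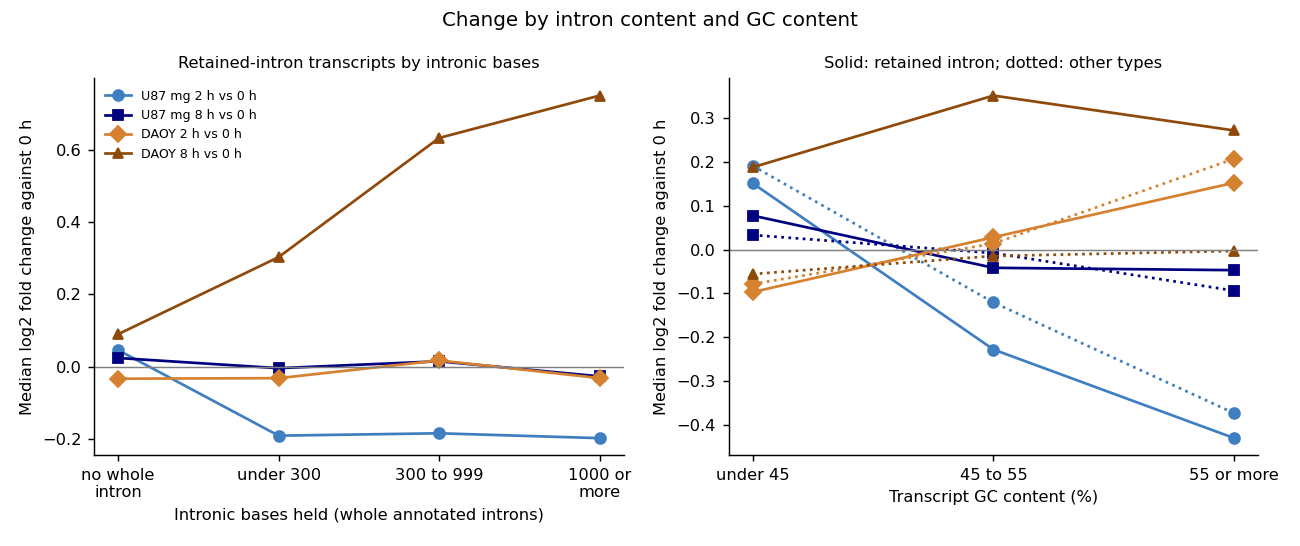
Median log2 fold change against 0 h (y axes) of retained-intron transcripts by the bases of whole annotated introns they hold (left) and by GC content of the transcript (right, solid lines, with transcripts of other types dotted), 1 line per comparison. On the left DAOY at 8 h climbs from 0.09 to 0.75, and on the right U87 mg at 2 h descends from 0.15 to -0.43 for retained-intron transcripts and from 0.19 to -0.37 for the others.

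The called genes with the smallest p in DAOY at 8 h span signalling, transcription, sugar breakdown and splicing. IKBKB, a kinase that releases NF-kappaB, went from 3.87, 5.51 and 3.59 CPM (counts scaled to the library total as adjusted by edgeR's TMM factors) at 0 h to 14.2, 16 and 18.3 CPM at 8 h. The groups lay far apart, and the log2 fold change was 1.90 ± 0.26 (SE, edgeR, adjusted p = 0.0243). Its retained-intron rows held 22.9% to 35.5% of the gene's counts at 0 h and 58.2% to 69.9% at 8 h, but the test of usage, which compares a sum with the other rows of its gene, did not pass (log2 usage 1.17, edgeR, adjusted p = 1).

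SNHG3, a long noncoding RNA that carries a small nucleolar RNA in an intron, had 30.6, 35.6 and 31.7 CPM at 0 h, 43.8, 57.1 and 51.4 CPM at 2 h, and 67.7, 89.9 and 65.7 CPM at 8 h. All samples at 2 h lay above those at 0 h and all at 8 h above those at 2 h, and at 8 h it rose by 1.19 ± 0.17 on the log2 scale (edgeR, adjusted p = 0.031). Since 100% of its counts lie in retained-intron rows, this is the change of the gene.

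ZNF143, a zinc finger transcription factor, went from 2.05, 3.13 and 2.22 CPM to 10.2, 12.3 and 13 CPM, a log2 fold change of 2.25 ± 0.33 (edgeR, adjusted p = 0.031). The samples did not overlap, yet the protein-coding rows rose with it by 1.67 ± 0.18 (edgeR, adjusted p = 0.013), and the retained-intron share was 8.34% to 16% at 0 h and 15.4% to 15.7% at 8 h. Its usage did not pass (log2 usage 0.50, edgeR, adjusted p = 1).

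PFKM, the muscle form of phosphofructokinase, whose 252-base intron is printed above, went from 1.14, 2.88 and 1.79 CPM to 12.5, 15.2 and 9.64 CPM. The lowest sample at 8 h was more than 3 times the highest at 0 h, and the log2 fold change was 2.66 ± 0.41 (edgeR, adjusted p = 0.0318). Its share of the gene went from 2.81%, 5.50% and 3.2% to 25.8%, 42.7% and 24.5%, and its usage rose by 2.95 on the log2 scale (edgeR's diffSpliceDGE, adjusted p = 0.0153). The protein-coding rows had a log2 fold change of -0.75 ± 0.22 that did not pass (edgeR, adjusted p = 0.124).

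SRRM1, a splicing coactivator of nuclear speckles with the 2069-base intron shown above, went from 6.61, 6.01 and 4.12 CPM to 16.5, 31.1 and 22.8 CPM. It rose by 2.07 ± 0.33 on the log2 scale (edgeR, adjusted p = 0.0318) with no overlap between the groups, and its share ran from 3.81% to 5.08% of the gene at 0 h and from 12.6% to 17.5% at 8 h (log2 usage 1.78, edgeR, adjusted p = 0.135).

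OGT had the highest retained-intron level at 8 h of the 25 called sums. Its 3271-base intron transcript (ENST00000488174, chrX:71533104-71574655, plus strand) and the other rows of the type summed to 42.8, 48.1 and 29.4 CPM at 0 h and 130, 210 and 153 CPM at 8 h in DAOY, a rise of 2.03 ± 0.35 on the log2 scale (edgeR, adjusted p = 0.0379). The share of the gene was 29.1%, 35.8% and 20.8% at 0 h and 53.9%, 47.9% and 51.9% at 8 h. The lowest sample at 8 h stood above the highest at 0 h in level and in share, usage did not pass (log2 usage 0.83, edgeR, adjusted p = 1), and the protein-coding rows changed by 0.66 ± 0.26 (edgeR, adjusted p = 0.248). In U87 mg the sum was 48.3, 55.4 and 41.0 CPM at 0 h and 83.6, 75.5 and 66.4 CPM at 8 h, again without overlap, but the log2 fold change of 0.64 ± 0.16 did not pass (edgeR, adjusted p = 0.164).

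**Figure D4:**
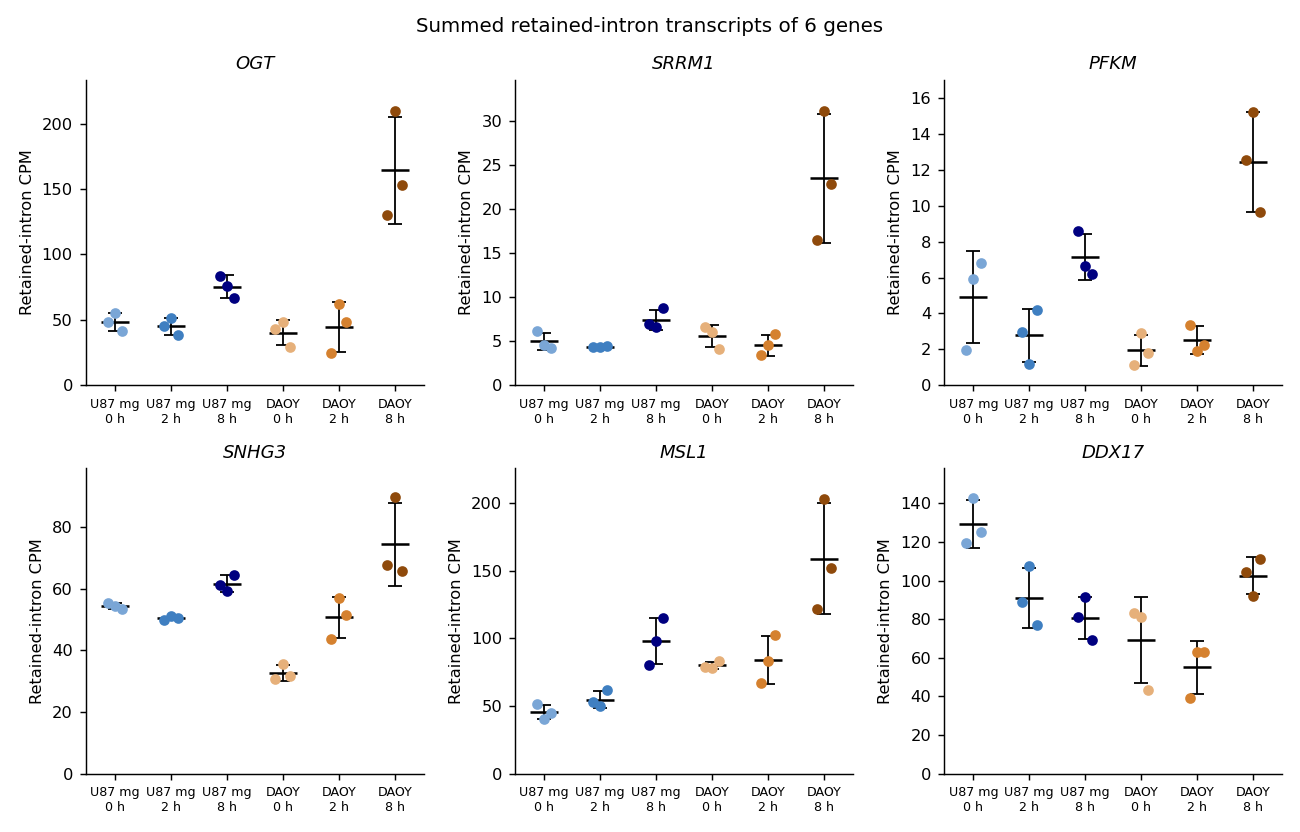
Summed retained-intron CPM (y axes, starting at 0) of 6 host genes in the 6 conditions, with points for the 3 samples, bars for the mean and whiskers for ± 1 SD. In OGT, SRRM1, PFKM and SNHG3 the DAOY samples at 8 h lie above those at 0 h, MSL1 is higher at 8 h in both lines, and DDX17 goes from 120 to 143 CPM at 0 h down to 69.4 to 91.4 CPM at 8 h in U87 mg.

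Other called genes are named after their values were seen. Among them were TRIM27, CTTN, UBE2Z, UBE2G2, KCTD10, RSRP1, ABCB6, HDAC1, SPIDR, UAP1L1, DAZAP1, NPAS2, PNN, ATG12, C16orf52 and CYHR1. ABCB6, a membrane transporter, had the largest log2 fold change of the 23 that rose, from 0.456, 0.823 and 1.16 CPM to 4.06, 7.16 and 9.22 CPM (log2 3.04 ± 0.54, edgeR, adjusted p = 0.0405), and its share ran from 10.8% to 12.4% at 0 h and from 52.2% to 72.4% at 8 h (log2 usage 2.56, edgeR, adjusted p = 0.289). RSRP1, an arginine and serine rich protein, rose by 1.81 ± 0.32 (edgeR, adjusted p = 0.04), yet its retained-intron share was lower at 8 h, 35.1% to 37.5% against 39.9% to 53%.

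The 2 sums that fell were DHX29 and MAGI2-AS3. DHX29, an RNA helicase of translation initiation, went from 5.92, 2.72 and 4.65 CPM to 0.277, 0.227 and 0.207 CPM, or 129 counts in all against 7.19. Scaled to library size the ratio was 18.3 (95% counting interval 8.84 to 47.5), the adjusted p was 0.0318 by edgeR, and its usage fell as well (edgeR's diffSpliceDGE, adjusted p = 0.041). MAGI2-AS3, a long noncoding RNA, went from 38.4, 30.5 and 26.2 CPM to 14.1, 15.8 and 15.1 CPM and fell by 1.08 ± 0.19 on the log2 scale (edgeR, adjusted p = 0.039). Its gene overlaps the start of MAGI2 on the other strand, and the use of strand in counting is not given in the sources used here. CCL2 (a chemokine), CPSF3 (the nuclease that cuts RNA before its poly-A tail is added) and LUC7L2 (a U1-associated splicing protein) were next by p among lower sums and did not pass, at -1.91, -1.0 and -2.52 in log2 units (edgeR, adjusted p = 0.0772, 0.0686 and 0.0672). The protein-coding rows of CCL2 and CPSF3 were lower as well, at -1.53 and -0.94 (edgeR, adjusted p = 0.0379 and 0.0352).

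By usage, PFKM and U2SURP rose and DHX29 fell in DAOY at 8 h, 3 of 1556 sums, or 0.129% and 0.0643% against 0.0549% and 0.0412% of all sums. U2SURP, a protein that works with the U2 particle of the spliceosome, had retained-intron shares of 2.04%, 2.91% and 1.70% at 0 h and 6.75%, 10.2% and 10.5% at 8 h (log2 usage 2.07, edgeR's diffSpliceDGE, adjusted p = 0.0375). With any one of the 6 libraries left out U2SURP was not called, DHX29 was called only without the 0 h replicate 1 and PFKM only without the 0 h replicate 1 or the 8 h replicate 0, with log2 usage between 2.69 and 3.31 for PFKM. At an unadjusted p under 0.05, 101 retained-intron sums were higher and 22 lower (6.49% and 1.41%, against 2.24% and 1.43% of all).

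At 2 h in DAOY the direction of the class turned with the libraries used. The median was -0.05 over 1585 sums with 44.5% higher, and edgeR called 0 of them, as 0% of all 23540, with 18 higher and 55 lower at an unadjusted p under 0.05 (1.3% and 1.95% of all) and 1 called by DESeq2. Of the 2078 single transcripts edgeR called 0, as 0% of all, with 20 higher and 28 lower at an unadjusted p under 0.05 (1.47% and 1.6% of all) and 6 called by DESeq2, and 78 and 92 had groups without overlap (4.19% and 4.05% of all). Usage gave 0 calls among 1556 sums (0.0206% and 0.0137% of all were called higher and lower), with 10 higher and 52 lower at an unadjusted p under 0.05 (0.643% and 3.34%, against 0.995% and 2.09% of all), and 0 calls by limma's diffSplice. Groups did not overlap for 47 higher and 74 lower sums (2.97% and 4.67%, against 3.52% and 4.27% of all). With and without a whole intron the medians of single transcripts were -0.01 and -0.03. Without the replicate 0 at 2 h they were 0.11 and 0.03 and the median of the sums was 0.04 with 54.3% higher, while without the replicate 1 at 2 h they were -0.16 and -0.14 and that of the sums -0.15 with 39.1% higher. The uncalled sum with the smallest p among those higher was in DNAJB2, a cochaperone, at 2.05, 2.30 and 1.48 CPM at 0 h and 9.20, 5.80 and 7.04 CPM at 2 h (log2 1.91 ± 0.42, edgeR, adjusted p = 1). TIMELESS, a protein of the replication fork, stood at 20.3, 10.9 and 10.0 CPM and then 1.98, 6.20 and 1.41 CPM (log2 -2.09 ± 0.56, edgeR, adjusted p = 1). Neither pair of groups overlapped.

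At 2 h in U87 mg the transcripts with a whole intron lay slightly lower. Their share of the library was 0.839%, 0.883% and 0.866% at 0 h and 0.772%, 0.831% and 0.747% at 2 h, without overlap, and rows under the threshold went from 0.531% to 0.424% without overlap as well. In TPM the whole-intron share went from 0.953% to 0.900% with overlap and that of the rows under the threshold from 1.12% to 0.978% without. The median log2 fold change was -0.19 for the 814 tested with a whole intron and 0.05 for the 1272 without. Unlike in DAOY at 8 h, the value moved with base composition, with 0.05, -0.21 and -0.43 for introns under 40%, from 40% to 50% and over 50% GC, and it did not move with intron length, with -0.19, -0.18 and -0.20 in the 3 classes of length. Transcripts of other types moved in the same way, with medians of 0.19, -0.12 and -0.37 below 45%, from 45% to 55% and above 55% GC, against 0.15, -0.23 and -0.43 for the members. In DAOY at 8 h the other types had -0.06, -0.01 and -0.00 in these classes. In DAOY at 2 h the medians rose with GC content, at -0.10, 0.03 and 0.15 for the members and -0.08, 0.01 and 0.21 for other types. The part of GC content in the U87 mg and DAOY values was not tested.

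No retained-intron sum passed in U87 mg at 2 h. edgeR called 0 of 1587 (0% of all 22410), with 64 higher and 84 lower at an unadjusted p under 0.05 (4.36% and 3.41% of all) and 10 called by DESeq2, and it called 0 of 2086 transcripts (0% of all), with 52 and 66 at an unadjusted p under 0.05 (2.89% and 2.67% of all) and 9 called by DESeq2. Of the transcripts 130 were higher and 160 lower without overlap (6.39% and 5.76% of all). The samples did not overlap for 95 higher and 119 lower sums (5.99% and 7.50%, against 7.92% and 5.86% of all). By usage 1 sum was called higher and 1 lower of 1557 (0.0642% each, against 0.0068% and 0.0476% of all). MDH1, cytosolic malate dehydrogenase, went from 0.187, 0.325 and 0.381 CPM to 3.52, 9.94 and 31.5 CPM (adjusted p for usage 0.00355 by edgeR's diffSpliceDGE), but in DAOY at 0 h alone its 3 samples ran from 0.494 to 49.1 CPM. PSMD12, a subunit of the proteasome, had 6.93, 4.55 and 6.79 CPM at 0 h, or 237 counts over the group, and 0.163 counts over the group at 2 h. That is at least 60.1-fold lower when 3 counts over the group are taken as the least that could be seen (adjusted p for usage 0.00355 by edgeR's diffSpliceDGE). Its samples ran from 0.422 to 8.32 CPM in DAOY at 0 h. PSMD12 was called with any one library left out, and MDH1 was not called without the 2 h replicate 2. MDH1 and PSMD12 thus stood near 0 in 1 sample and well above it in another within a single untreated group.

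Several uncalled genes of U87 mg at 2 h had groups without overlap. CCAR1, a regulator of transcription and cell cycle, stood at 8.05, 3.66 and 6.35 CPM at 0 h and at 14.3, 16.2 and 15.6 CPM at 2 h (log2 1.35 ± 0.29, edgeR, adjusted p = 0.62). ECE1, which processes endothelin, stood at 15.8, 13.7 and 13.5 CPM and then at 8.56, 8.45 and 8.96 CPM (log2 -0.73 ± 0.17, edgeR, adjusted p = 0.62). Among lower sums RRM1 (ribonucleotide reductase), ZNF3, PSMD12 and EIF5B, and among higher sums CALCOCO2, CMAS, EPRS and MDH1, had the same adjusted p.

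At 8 h in U87 mg the level of the class as a whole stayed near that at 0 h. The median was 0.01 over 1587 sums with 51.3% higher, and it was -0.02 with and 0.02 without a whole intron. The protein-coding sums of the same host genes had a median of 0.06 with 61.2% higher. Within the host genes the retained-intron rows had the more positive change in 47.0% of 1609 genes. edgeR called 0 sums (0.0134% and 0.0178% of all were called higher and lower), with 82 higher and 62 lower at an unadjusted p under 0.05 (5.95% and 4.87% of all) and 17 called by DESeq2, and it called 0 transcripts (0% of all), with 60 and 53 at an unadjusted p under 0.05 (3.37% and 2.93% of all) and 22 called by DESeq2. Of the transcripts 170 were higher and 146 lower without overlap (6.76% and 6.75% of all). Groups did not overlap for 135 higher and 113 lower sums (8.51% and 7.12%, against 7.84% and 8.05% of all).

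DDX17, an RNA helicase of splicing and transcription, was the most abundant gene whose usage changed. Its retained-intron rows, led by ENST00000216019 (chr22:38485681-38506294, minus strand, 12 exons) with the 3940-base intron shown above, stood at 120, 143 and 125 CPM at 0 h, 88.8, 108 and 76.8 CPM at 2 h, and 81.1, 91.4 and 69.4 CPM at 8 h in U87 mg. The samples at 8 h all lay below those at 0 h. The share of the gene was 19.9%, 26.5% and 24.1% at 0 h and 10.9%, 13.3% and 9.39% at 8 h, and usage fell by 1.07 on the log2 scale (edgeR's diffSpliceDGE, adjusted p = 0.00807). The level itself did not pass (log2 -0.68 ± 0.15, edgeR, adjusted p = 0.136), nor did the protein-coding rows (0.60 ± 0.11, edgeR, adjusted p = 0.0841). The usage call was lost without the 0 h replicate 1 (-0.97) or the 8 h replicate 2 (-0.95). In DAOY at 8 h the protein-coding rows of DDX17 rose by 1.12 ± 0.16 (edgeR, adjusted p = 0.031), and the retained-intron share was 11.6% to 20.4% at 0 h and 9.70% to 14.3% at 8 h, with overlap.

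UBE2B, a ubiquitin-conjugating enzyme, was the other call by usage in U87 mg at 8 h, so that 1 sum was called higher and 1 lower of 1557 (0.0642% each, against 0.0068% and 0.0272% of all). It went from 0.0637 counts over the 3 samples to 148, at least 50.1-fold higher with the same floor (edgeR's diffSpliceDGE, adjusted p = 0.0281), while its 3 samples in DAOY at 0 h ran from 8.24 to 98.0 CPM. Leaving out any one library other than the 8 h replicate 2 ended this call.

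MSL1, the scaffold of a histone acetyltransferase complex, with the 191-base intron printed above, had the smallest p of the uncalled sums in U87 mg at 8 h. It stood at 51.4, 40.6 and 45.3 CPM at 0 h and 80.7, 98.4 and 115 CPM at 8 h without overlap (log2 1.10 ± 0.16, edgeR, adjusted p = 0.0708), and its share was 36.6% to 41.1% and then 52.1% to 59.9%. In DAOY it stood at 79.1, 78.1 and 83.1 CPM and then 122, 203 and 152 CPM (log2 0.99 ± 0.21, edgeR, adjusted p = 0.0595). IP6K2, an inositol phosphate kinase, stood at 24.7, 18.5 and 18.2 CPM and then 36.4, 41.3 and 55.1 CPM (log2 1.11 ± 0.19, edgeR, adjusted p = 0.0803), and STK17A, RSRP1 and PPP2R2A came next among higher sums. Among lower sums PTPRM, CDCA7L, HMGA2, LPIN1 and DDX17 had the smallest p and did not pass.

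The genes were also grouped into 12 lists by function, and the counts below are of the host genes in each list. By level, the largest median in DAOY at 8 h among lists of more than 2 genes was that of RBM proteins and other RNA-binding proteins of nuclear speckles, the domains where splicing factors are stored. All 23 of its sums were higher, 13 without overlap (against 11.6% of all sums higher and 11.4% lower without overlap, the shares that hold for each list at this time), and the median log2 fold change was 0.91 against 0.23 over all retained-intron sums. By usage, relative to the other rows of each gene, its median was 0.39, against 0.18 over all retained-intron sums. SR proteins and TRA2 had a larger median log2 usage, 0.52, and so had hnRNP proteins, 0.43. It was 0.29 for host genes of small nucleolar RNAs, -0.06 for the core spliceosome and -0.33 for the kinases with LUC7-like proteins. SRRM1 and PNN, a speckle protein, rose (PNN from 11.5, 10.1 and 10.5 CPM to 17.9, 27.8 and 26.2 CPM, log2 1.16 ± 0.23, edgeR, adjusted p = 0.0491). Of the most abundant members, those named here did not pass, with DDX39B, an RNA helicase of mRNA export, at 116, 121 and 93.0 CPM and then 174, 265 and 176 CPM (0.89 ± 0.21, edgeR, adjusted p = 0.0766), and DDX5 at 0.05. In U87 mg at 8 h, 15 of these 23 were higher with a median of 0.09, and at 2 h the medians were -0.03 in U87 mg and -0.06 in DAOY.

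In the lists of SR proteins, hnRNP proteins, the core spliceosome and the kinases with LUC7-like proteins no sum passed edgeR's test of sums in any of the 4 comparisons, and in DAOY at 8 h an unadjusted p under 0.05 was reached by 2 SR, 3 hnRNP and 3 core spliceosome sums, all higher, and by 2 higher and 1 lower of the kinase list (against 7.92% higher and 9.03% lower of all sums). In DAOY at 8 h all 9 sums of SR proteins and TRA2, which bind exonic enhancers, were higher with a median of 0.43 and 2 without overlap. TRA2B was at 32.8, 24.7 and 28.4 CPM and then 43.4, 110 and 63.9 CPM (1.34 ± 0.36, edgeR, adjusted p = 0.11), while SRSF2 and SRSF3 were at 0.04 and 0.03. Of 9 hnRNP sums 7 were higher with a median of 0.54, and HNRNPH1 was at 188, 150 and 120 CPM and then 225, 406 and 257 CPM without overlap (0.95 ± 0.29, edgeR, adjusted p = 0.15). Of 18 core spliceosome sums 11 were higher with a median of 0.24. Of the 4 sums of CLK and SRPK kinases, which phosphorylate SR proteins, and LUC7-like proteins, CLK1 and CLK4 were at 1.10 and 0.97 (edgeR, adjusted p = 0.15 and 0.16), LUC7L at -0.01 and LUC7L2 at -2.52. Without the DAOY 8 h replicate 1 the medians of the SR, hnRNP and core spliceosome lists were 0.22, 0.32 and 0.03. In the other 3 comparisons, in the order U87 mg 2 h, U87 mg 8 h and DAOY 2 h, the medians were 0.21, 0.21 and -0.17 for SR proteins and TRA2, 0.01, 0.25 and -0.09 for hnRNP proteins, 0.03, -0.01 and -0.14 for the core spliceosome, and 0.01, -0.37 and -0.07 for the kinases and LUC7-like proteins.

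Host genes of small nucleolar RNAs had 11 of 14 sums higher in DAOY at 8 h, 9 without overlap (11.6% of all sums), with a median of 0.77 and SNHG3 called. GAS5, a noncoding host, was at 46.6, 46.1 and 57.0 CPM and then 78.6, 128 and 101 CPM (1.04 ± 0.25, edgeR, adjusted p = 0.082), and NCL (nucleolin) was at -0.19. Ribosomal protein genes had 27 of 38 sums higher with a median of 0.41 and, without overlap, 14 higher and 1 lower (11.6% and 11.4% of all). None passed edgeR's test, with 11 higher and 1 lower at an unadjusted p under 0.05 (7.92% and 9.03% of all). The DAOY 0 h replicate 0 was low in several of these, with RPL14 at 40.3 CPM against 115 and 104 in its group, and without it the median was 0.69. Translation factors and aminoacyl-tRNA synthetases had 22 of 33 higher with a median of 0.16 and none called by edgeR (4 higher and 2 lower at an unadjusted p under 0.05), and here the same library had 14.2 CPM of EIF3L against 176 and 206. In the same order of the other 3 comparisons the medians were 0.00, 0.10 and 0.20 for small nucleolar RNA hosts, -0.06, -0.03 and -0.01 for ribosomal proteins, and -0.08, 0.16 and -0.13 for translation factors.

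Heat shock proteins and chaperones had 13 of 18 sums higher in DAOY at 8 h with a median of 0.37 and none called by edgeR (6 higher at an unadjusted p under 0.05), among them DNAJC2, a ribosome-bound cochaperone, at 86.5, 64.4 and 99.1 CPM and then 151, 275 and 193 CPM (1.31 ± 0.39, edgeR, adjusted p = 0.13). Histone and chromatin enzymes had 15 of 19 higher with a median of 0.39, and HDAC1, a histone deacetylase, rose from 1.82, 2.96 and 2.75 CPM to 9.04, 14.5 and 7.77 CPM (2.05 ± 0.37, edgeR, adjusted p = 0.0439). Of the genes of O-GlcNAc cycling and p53 control 2 had members, OGT and USP7, and OGT alone passed, with USP7 at 0.72 ± 0.40. Genes of nonsense-mediated and other RNA decay had 6 of 14 higher with a median of -0.02, none called by edgeR and 1 higher at an unadjusted p under 0.05. In the other 3 comparisons the medians were 0.05, -0.04 and -0.05 for heat shock proteins, 0.04, 0.22 and -0.07 for chromatin enzymes, 0.20, 0.51 and 0.22 for the O-GlcNAc and p53 list, and -0.37, -0.14 and -0.03 for RNA decay.

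Between the lines at 0 h, in a fit to all 18 samples, 162 of 1615 retained-intron sums were higher in DAOY and 256 lower (10% and 15.9%, against 17% and 13.6% of all sums). The FN1 transcript ENST00000494446 (chr2:215361341-215365676, minus strand) was at 326 TPM in U87 mg and 1989 TPM in DAOY at 0 h. When the change at 8 h was compared between the lines, edgeR called 0 of 1615 sums (0% of all 26506), with 158 more positive in DAOY and 27 more negative at an unadjusted p under 0.05 (9.78% and 1.67% of the members, against 3.36% and 4.76% of all sums), and 0 were called with DESeq2 size factors, so a difference between the lines was not shown for any single gene.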

How the data were processed

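RNA of 18 samples of aggregated U87 mg and DAOY cells was read as stranded poly-A libraries. As deposited, the table gives for each of 145326 transcripts the estimated count of every sample, which the authors made with kallisto 0.43.0 on GENCODE transcripts of GRCh38.p5, and the TPM of the same run. The submitters' processing notes also name sleuth 0.28.1, whose fold changes and p-values, the authors' own comparisons, were not used.

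Samples were grouped by their labels. Estimated counts were rounded to whole numbers and tested, with low features removed by filterByExpr and TMM scaling, by edgeR 4.0.16 (quasi-likelihood, 9 samples of a line in 1 fit, Benjamini-Hochberg adjustment over all features) for transcripts, for sums by gene name and type, and for usage (diffSpliceDGE, adjusted p below 0.05). The test itself gives no SE. Each SE printed with it was derived as the absolute log2 fold change divided by the square root of the F statistic. The scripts were tested on simulated data with a smaller spread between replicates than that of the single transcripts here. Changes were set only in the more abundant features, so weaker and noisier transcripts were not covered. DESeq2 1.42.0, limma 3.58.1, other filters, units and sample sets, a replicate block and leaving out each library were the alternatives. Introns were taken from GENCODE 29, since release 24 was not used here, and an intron of at least 30 bases counted as whole if both its ends lay inside 1 exon. Total counts of 8341976 to 15610886 set the precision, and intervals cover counting error only.

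The members and lists were chosen with earlier results of these data known. Genes named were the 10 members of highest TPM, in each comparison the 5 sums of smallest p in each direction that passed or, failing that, that did not overlap, up to 4 of highest count per list, and the 3 members on either side of the threshold. Others are said to be chosen after their values were seen, or were called by usage. Some genes that the rule would name are not reported here.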

Additional observations from a re-analysis of the deposited data

Results flagged for a closer look

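Of 1557 retained-intron sums tested in both lines, 16 (1.03%, against 0.321% of all 19965 sums) were lower at 8 h in every U87 mg sample and higher at 8 h in every DAOY sample than at 0 h, and 3 (0.193%, against 0.13%) did the reverse. Of the genes named here 3 were among the 16, picked for this pattern. The change in DAOY minus that in U87 mg, in log2 units and by edgeR's interaction test with Benjamini-Hochberg adjustment over all sums, was 1.21 ± 0.32 (SE) for DDX17 (unadjusted p = 0.00195, adjusted p = 0.309). It was 3.06 ± 0.76 for HMGA2, a chromatin protein of embryonic and tumour cells (unadjusted p = 0.00109, adjusted p = 0.264), and 2.19 ± 0.46 for LPIN1, a phosphatidate phosphatase (unadjusted p = 0.000237, adjusted p = 0.175). None passed after adjustment. HMGA2 stood at 12.2, 6.83 and 8.76 CPM at 0 h and 4.45, 3.36 and 2.16 CPM at 8 h in U87 mg, and at 1.94, 1.32 and 0.422 CPM and then 6.82, 2.16 and 2.38 CPM in DAOY. LPIN1 stood at 3.56, 5.69 and 4.82 CPM and then 1.81, 2.44 and 2.16 CPM in U87 mg, and at 1.71, 1.48 and 1.27 CPM and then 4.43, 3.07 and 2.07 CPM in DAOY. The DAOY 0 h replicate 0 had the highest HMGA2 value of its group and the 0 h replicate 2 the lowest DDX17 value, 43.4 CPM.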

How the results depend on the processing

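For 65 results named by gene, 551 of 875 alternatives kept the direction and the side of the threshold, 292 kept the direction and were no longer past it, 32 came to pass it and 0 changed direction. Called transcripts, 0 in each comparison, became 9 (U87 mg 2 h), 22 (U87 mg 8 h), 6 (DAOY 2 h) and 111 (DAOY 8 h) with DESeq2, 1 in DAOY at 2 h with limma on log2(TPM + 1), with limma on log2(TPM + 0.1) and with all 18 samples in 1 edgeR fit, and at 8 h in DAOY 19 with at least 10 counts in every sample, 1 with limma on log2(TPM + 0.1) and 17 with all 18 samples. Called sums at 2 h in U87 mg went from 0 to 2 without a filter, 10 with DESeq2 and 1 with limma (TPM + 0.1), at 8 h from 0 to 5, 17 and, with all 18 samples, 2, and in DAOY at 2 h from 0 to 1 with DESeq2. The 25 sums of DAOY at 8 h became 119 with DESeq2, 7 and 6 with limma (TPM + 1 and + 0.1), 77 with all 18 samples, 0 with the 6 samples alone and 0 to 1 without 1 library. With the replicate number as a block they became 0, usage calls became 1 of 2 (U87 mg 8 h) and 0 of 3 (DAOY 8 h) and stayed at 2 (U87 mg 2 h), and the block left no other count beyond 1.5 times its value. After the mean of each group was subtracted from the log2 values, same-numbered samples of a line at different times correlated between -0.123 and 0.241. Differently numbered ones correlated between -0.154 and 0.191, so the numbers were not taken to pair samples. Usage calls without 1 library were 2 to 8 (U87 mg 2 h, 8 without the 2 h replicate 0), 0 to 2 (U87 mg 8 h) and 0 to 2 (DAOY 8 h), without a filter 1 (U87 mg 8 h) and 0 (DAOY 8 h), and with limma's diffSplice 0 (U87 mg 2 h) and 8 (DAOY 8 h). The log2 ratio of the class share of the library was -0.02 at 2 h in U87 mg but 0.068 in TPM and -0.070 over all retained-intron rows, and 0.12 at 8 h in DAOY but -0.043 in TPM. That of the host share was 0.00 at 2 h in U87 mg but 0.063 and -0.072 likewise, and 0.13 at 8 h in DAOY but 0.015 in TPM and 0.23 as a median over genes. Without 1 library these ratios at 8 h in DAOY lay between 0.05 and 0.18, and at 2 h in DAOY they were positive only without the 2 h replicate 0 (0.04 and 0.02). The cause of these changes was not tested. Splitting members by whole introns and choosing them on the other line were added after the data were seen. Single transcripts vary too much between replicates for 3 samples a group to resolve small changes.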
